A study of Mus musculus with 12 samples.

Results

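The comparison described here is the effect of an anti-EpCAM antibody on the transcripts of non-SP cells of A2C12, a mouse lung tumour cell line. It rests on 6 of the 12 arrays of the study, 3 of A2C12 non-SP cells that received no antibody and 3 of non-SP cells that received anti-EpCAM at 100 µg/ml for 48 h, chosen by their labels alone. Both groups share everything else that the labels state. The line came from a lung tumour of a C57BL/6 mouse that carried both a c-raf and a c-myc transgene, and before flow sorting all cells took up the dye Hoechst (5 µg/ml, 90 min). Non-SP cells are those that keep this DNA dye, whereas cells of the side population (SP) pump it out. Reserpine at 50 µmol/l, a pump blocker, was used to set the gate, and 200 ng of total RNA entered the labelling for each Affymetrix mouse expression array. The labels call the 3 arrays of a group biological replicates without naming separate thaws or days, so a p-value measures the spread between these samples only. The labels give the control cells no antibody, and a control antibody was not analysed here. All cells come from 1 line.

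EpCAM, encoded by Epcam, is a surface glycoprotein of epithelia and carcinomas that mediates contacts between cells and associates with claudin-7, tetraspanins and CD44. In its described signalling route, ADAM proteases shed the outer part and gamma-secretase releases the inner part. The freed inner part enters the nucleus with FHL2, beta-catenin and LEF1 and is linked to transcription of growth genes such as Myc and cyclins. In normal lung, Epcam marks airway and alveolar epithelium. In RNA from bulk sorted cells, fewer cells of a type and less RNA per cell cannot be told apart.

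No transcript passed the threshold in non-SP cells. With limma over all 12 arrays, 0 of 18194 genes reached a Benjamini-Hochberg adjusted p under 0.05 in either direction (0% higher and 0% lower), and no adjusted p was below 0.988. Before adjustment, 94 genes were higher (0.517%) and 491 lower (2.7%) with the antibody at a p under 0.05, 585 in all (3.22%). The median 95% interval of a gene reached 0.46 log2 units to either side of its estimate. For 16432 genes (90.3%) that interval lay wholly within a 2-fold difference, so larger differences lie outside the intervals of most genes. No level below is therefore said to have risen or fallen, and each difference is a log2 difference, treated minus untreated, with the spread of its arrays.

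The treated arrays differed from the untreated ones in scale, and 1 of them stood apart. Array medians were 6.02, 5.81 and 5.97 log2 units in the untreated arrays and 5.81, 5.86 and 5.72 in the treated arrays. The difference of -0.14 between the group means had a two-sided exact permutation p of 0.2, where 3 against 3 arrays can give no less than 0.1. In anti-EpCAM replicate 2, the actin control probe set for the 3′ end exceeded that for the 5′ end by 0.895 log2 units, against 0.209 to 0.404 in the other non-SP arrays. The same difference for Gapdh was 0.456, against -0.0122 to 0.0993. These control probe sets read how intact the RNA was and how evenly it was copied along its length, which they cannot tell apart. That array also had the lowest mean correlation with the other arrays, 0.982, and the narrowest spread of values, with an SD of 2.32 over all probe sets. Its genes with a mean level of 4 to 6 lay at a median of 0.16 above the untreated mean, and those with a level of 8 to 10 at -0.28. In anti-EpCAM replicate 1 the same medians were -0.07 and -0.04, and in replicate 3 they were -0.21 and -0.11. Thus low-level genes were high and high-level genes low in 1 treated array, and the larger shifts that follow when it is left out are given beside the results. Other values may move without it too. In SP cells, which enter the interaction below, anti-EpCAM replicate 2 had the same control differences at 1.03 for actin and 0.497 for Gapdh, and untreated replicate 3 had 0.733 for actin.

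**Figure D1:**
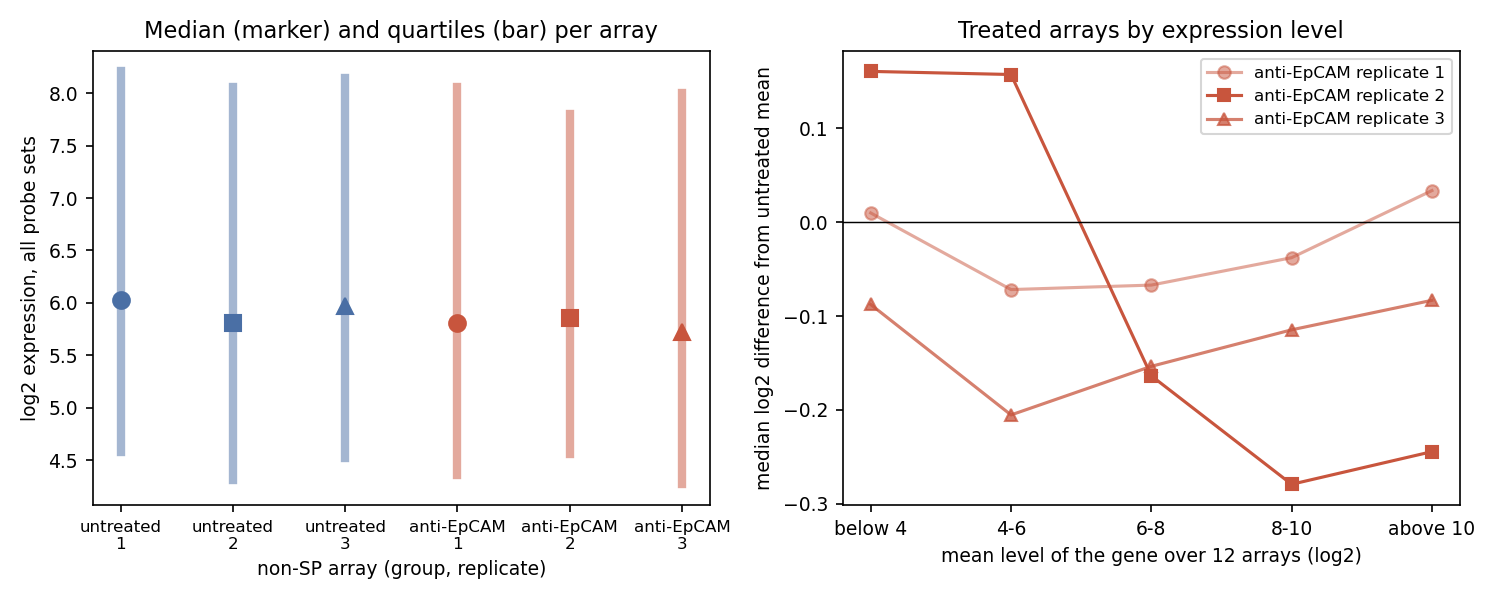
Left, the median (marker) and quartiles (bar) of all probe sets in each of the 6 non-SP arrays (log2 expression). Right, the median log2 difference of each treated array from the untreated mean, for genes binned by their mean level over the 12 arrays, where replicate 2 runs from 0.16 at the lowest levels to -0.28 at a level of 8 to 10 and crosses the other treated arrays.

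The direction of most small differences followed this scale. Over all genes the median difference was -0.10, with 5298 genes above 0 and 12896 below. After each array was centred on its own median the median difference became 0.04, and the split at an unadjusted p under 0.05 turned to 560 genes higher (3.08%) and 88 lower (0.484%). A new quantile normalisation gave 416 higher and 169 lower. The 3 treated arrays lay above all untreated arrays for 216 genes (1.19%) and below them for 1204 (6.62%) as deposited. With centred arrays the same counts were 1130 (6.21%) and 222 (1.22%). Only 211 genes lay apart upward (1.16%) and 207 downward (1.14%) on both scales. Single arrays also moved these counts. Without anti-EpCAM replicate 3, 274 genes were higher and 929 lower at an unadjusted p under 0.05, without anti-EpCAM replicate 2 or untreated replicate 2 only 48 and 53 were higher, and without untreated replicate 1 only 257 were lower. A difference is therefore given below as deposited and, where the scale matters, also centred, and lists are read against the median of all genes.

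The marker genes of the line are given as levels, which on arrays cannot be ranked between genes. The epithelial genes Krt8 and Krt19, keratins of simple epithelia, had means over the 12 arrays of 8.77 and 11.7. Cdh1, which encodes E-cadherin, had a mean of 6.35. Other epithelial genes lay lower, with Cldn4 at 5.43, Krt14 at 5.43 and Esrp1 at 4.02. Of 20 junction and keratin genes, 9 had a mean of at least 6, beside 11217 of all 18194 genes. Of the genes listed for alveolar type II cells, the lipid transporter gene Abca3 had a mean of 9.01 and the surfactant gene Sftpb of 7.44. Sftpc and Nkx2-1 lay at 5.64 and 5.55, below the lowest array median of 5.72. The stromal genes Col1a2 and Vim had means of 12.6 and 14.0. The leukocyte gene Ptprc lay at 3.42 and the endothelial genes Pecam1 and Cdh5 at 4.55 and 4.74. Other genes of these cell types lay higher, with endothelial Kdr at 6.70 and leukocyte Itgb2 and Fcer1g at 6.96 and 6.06. A mean of at least 6 was reached by 2 of 8 endothelial markers and 3 of 11 T, NK and B cell markers. It was also reached by 11 of 26 phagocyte genes. The mean level of the 9 fibroblast markers ranged from 8.94 to 9.07 in untreated and from 8.78 to 9.03 in treated arrays. The 11 T, NK and B cell markers had mean levels of 5.14 to 5.41 and 5.10 to 5.61, with the highest in anti-EpCAM replicate 2. The 7 neutrophil markers gave 5.25 to 5.75 and 5.21 to 5.70, the 8 endothelial markers 4.88 to 4.98 and 4.93 to 5.18, the 5 club cell markers 4.38 to 5.09 and 4.83 to 5.08 and the 2 red cell markers 4.41 to 4.66 and 4.47 to 4.70. These ranges overlapped between the groups for each of these lists as deposited. With centred arrays the endothelial means did not overlap, at 4.80, 4.93 and 4.87 untreated and 4.98, 5.17 and 5.09 treated. Of the 8 genes, 2 (Emcn and Kdr) then lay apart upward, as did 6.21% of all genes. None of the marker genes passed the threshold, and the part of other cells in the results was not tested.

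The transcript of the antigen itself differed little between the groups. Epcam stood at 8.34, 8.003 and 8.30 in the untreated arrays and 8.05, 7.92 and 8.28 in the treated arrays, and the groups overlapped. The difference was -0.13 ± 0.18 (SE) with a 95% interval of -0.52 to 0.26, and centred it was 0.01. Its probe set may also take up related transcripts, and the other Epcam probe set, with a mean of 4.61, differed by -0.04. Among the 21 measured genes of EpCAM partners and processing enzymes, 0 passed the threshold. Of these, 10 lay higher and 11 lower than the median difference of all genes, and that of the list was -0.11 beside -0.10 for all genes. Cd44 and Ctnnb1, the gene of beta-catenin, differed by 0.01 and -0.07, Cldn7, the gene of claudin-7, by -0.17 and Fhl2 by -0.05. The tetraspanin genes Cd9 and Tspan8 differed by -0.19 and 0.40. Without anti-EpCAM replicate 2, the values were Epcam at -0.05, Cldn7 at -0.34, Cd9 at -0.03 and Tspan8 at 0.22.

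Of the shedding enzymes, Adam10 stood at 11.98, 12.18 and 12.01 in the untreated arrays and 11.92, 11.40 and 11.90 in the treated arrays. The treated arrays of this gene, whose product cuts the outer domain of many surface proteins, lay just below the untreated ones. The difference of -0.32 ± 0.19 (SE) became -0.18 with centred arrays and -0.15 without anti-EpCAM replicate 2. Other Adam10 probe sets differed by -0.14, -0.07 and 0.20. Adam17 differed by -0.10, and the gamma-secretase genes Ncstn, Aph1a, Psenen, Psen2 and Aph1b differed by -0.08, -0.10, -0.13, -0.11 and -0.29. All of the latter lay within 0.2 log2 units of the median of all genes, and leaving out anti-EpCAM replicate 2 gave Psen2 at 0.17, Ncstn at -0.20, Aph1a at 0.00 and Psenen at -0.01.

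Lef1, which encodes the DNA-binding partner of beta-catenin, was the gene of this list with the lowest unadjusted p, 0.0124. It stood at 5.39, 5.25 and 5.46 in the untreated arrays and 5.02, 5.03 and 4.54 in the treated arrays, with every treated array below every untreated one. The difference was -0.50 ± 0.17 (SE) (limma adjusted p = 0.988) and centred -0.36. A second Lef1 probe set, with a mean of 3.75, differed by 0.27, so the probe sets of Lef1 differed in sign. In the list of Wnt ligands, receptors and targets, 23 genes were measured, with a median of -0.09. The treated arrays lay apart downward for 3 of them (6.62% over all genes) and, centred, for 1 (1.22%), which was Lef1. Axin2, a feedback gene induced by beta-catenin, differed by -0.04, and the Wnt receptor genes Fzd1, Fzd2 and Fzd7 by -0.26, -0.19 and -0.24, of which Fzd1 was at -0.13 and Fzd7 at 0.09 without anti-EpCAM replicate 2. Wnt5a, a ligand that mostly acts without beta-catenin, stood at 9.73, 9.88 and 9.37 in the untreated arrays and 9.03, 8.89 and 9.92 in the treated arrays. The groups overlapped, and the difference of -0.39 became -0.19 without anti-EpCAM replicate 2. Other Wnt5a probe sets differed by -0.52, -0.63 and 0.14.

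Genes described as growth targets downstream of EpCAM lay slightly above the bulk of genes. Of 11 such genes, 10 were above the median difference over all genes, and Fabp5, the gene of a fatty acid carrier, lay below at -0.27. The list had a median of 0.04. The list median relative to all genes was 0.14, and 0.08 without anti-EpCAM replicate 2. Myc, which encodes a transcription factor of growth that the line also carries as a transgene, stood at 10.49, 10.16 and 10.73 in the untreated arrays and 10.69, 10.74 and 10.03 in the treated arrays, a difference of 0.03 ± 0.23 (SE). The groups of Myc overlapped, and whether its probe set also reads the transgene is not given in the sources used here. Ccnd1, the gene of cyclin D1, differed by 0.07, Ccna2 of cyclin A2 by -0.03, Klf4 by -0.02 and Egfr by 0.00. Pou5f1 had the lowest unadjusted limma p of this list, 0.0879, at a mean level of 4.75. Its arrays overlapped between the groups, and its difference was 0.42, 0.56 centred and 0.37 without anti-EpCAM replicate 2. Leaving out anti-EpCAM replicate 2 put Myc at -0.10, Ccnd1 at -0.01, Ccna2 at -0.17 and Fabp5 at 0.03. Ccne1, the gene of cyclin E1, stood at 8.58, 8.26 and 8.74 in the untreated arrays and 8.73, 8.87 and 8.75 in the treated arrays, which overlapped as deposited and did not overlap when centred. Its difference was 0.26, while a second Ccne1 probe set with a mean of 8.14 differed by -0.20. Ccne2, its paralogue, was the gene of the DNA replication list with the lowest p. It stood at 7.05, 6.73 and 7.65 in the untreated arrays and 6.60, 6.25 and 6.54 in the treated arrays, apart downward on both scales, with a difference of -0.68 ± 0.40 (SE) (limma adjusted p = 0.988).

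The 10 highest and 10 lowest genes by moderated t were taken from 98 genes with a mean level of at least 6 whose treated and untreated arrays did not overlap on either scale, 28 higher and 70 lower. They were chosen for separation, so their separation is a description. Sh2d3c, which encodes an adaptor protein of receptor and integrin signalling, led the higher genes. It stood at 6.37, 6.14 and 6.05 in the untreated arrays and 6.72, 6.81 and 6.63 in the treated arrays. Its difference was 0.53 ± 0.16 (SE), 1.44-fold, with a limma adjusted p of 0.988. Pde1b, the gene of a calmodulin-dependent phosphodiesterase that degrades cyclic nucleotides, stood at 6.27, 6.13 and 6.16 in the untreated arrays and 6.93, 6.77 and 6.35 in the treated arrays and differed by 0.49. Kcnh3, a voltage-gated potassium channel gene, stood at 7.53, 6.91 and 6.90 in the untreated arrays and 7.69, 7.69 and 7.64 in the treated arrays and differed by 0.56. Edn3, which encodes the peptide ligand endothelin-3, stood at 7.23, 6.93 and 7.26 in the untreated arrays and 7.56, 7.76 and 7.36 in the treated arrays and differed by 0.42. All 3 treated arrays exceeded all untreated ones for each of these genes.

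The other higher genes were Fbxl7 with a difference of 0.54, Ccdc3 with 0.48, Itm2a with 0.44, Tcl1b4 with 0.40, Pnmt with 0.33 and Fbxw16 with 0.32. Fbxl7 and Fbxw16 encode F-box proteins, the substrate receptors of ubiquitin ligases, and Pnmt encodes the enzyme that makes adrenaline from noradrenaline. Centred, the 10 differences ran from 0.46 to 0.70. Without anti-EpCAM replicate 2, Pnmt moved to 0.21, Tcl1b4 to 0.25 and Fbxl7 to 0.36. Other probe sets of these genes differed among themselves. For Fbxl7 they differed by -0.26, 0.42 and 0.05, for Itm2a by -0.12 and for Pnmt by -0.20 and -0.09, whereas for Kcnh3 by 0.22, 0.08 and 0.16 and for Edn3 by 0.14, 0.31 and 0.12.

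Zeb2 had the most negative difference among the 10 lowest genes. It encodes a zinc finger repressor of E-cadherin and a driver of epithelial to mesenchymal transition. Zeb2 stood at 7.50, 7.48 and 7.33 in the untreated arrays and 6.86, 6.30 and 6.49 in the treated arrays, so the treated arrays all lay below 7 and the untreated ones above. The difference was -0.89 ± 0.26 (SE), 0.541-fold, with a 95% interval of -1.46 to -0.32 and a limma adjusted p of 0.988. Centred it was -0.74, and -0.76 without anti-EpCAM replicate 2. The 3 other Zeb2 probe sets with means of 6.45, 6.04 and 6.03 differed by -0.84, -0.24 and -0.54, and the dim one, with a mean of 3.42, by 0.28.

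Itga5, which encodes the alpha 5 chain of the fibronectin receptor, stood at 7.77, 7.85 and 7.57 in the untreated arrays and 7.15, 6.50 and 7.06 in the treated arrays. Its treated arrays all lay below its untreated arrays, and replicate 2 was the lowest. The difference was -0.83 ± 0.22 (SE) and -0.62 without that replicate. Other Itga5 probe sets differed by -0.14, -0.71 and -0.01, of which 1 was nearly as large as the first. Pan3, the gene of a subunit of the deadenylase that shortens poly(A) tails, stood at 8.42, 8.46 and 8.39 in the untreated arrays and 8.06, 7.53 and 7.82 in the treated arrays. The 3 other Pan3 probe sets shared its sign, at -0.51, -0.29 and -0.15 beside -0.62.

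F8a, whose product binds huntingtin, had the lowest unadjusted p of these genes, 0.00216, at 6.66, 6.58 and 6.62 in the untreated arrays and 6.03, 5.999 and 6.10 in the treated arrays. Its difference was -0.57 ± 0.15 (SE), and a second probe set with a mean of 5.42 differed by 0.03. Crb1, which encodes a Crumbs protein of apical cell polarity, stood at 7.25, 7.04 and 6.91 in the untreated arrays and 5.82, 6.54 and 6.36 in the treated arrays. The difference was -0.83, and -0.13 for a probe set with a mean of 3.70. Epsti1, an interferon-responsive gene named for epithelial and stromal interaction, differed by -0.62, but its dim other probe sets by -0.26, 0.42 and 0.05. Dnajb5, the gene of a J-domain co-chaperone, differed by -0.56, with 0.36 and -0.05 for others. The zinc finger genes Zfp930 and Zfp329 differed by -0.76 and -0.63, and their other probe sets by -0.48 for Zfp930 and by -0.54 and 0.34 for Zfp329. Camta1, a calmodulin-binding transcription activator gene, differed by -0.62, with -0.43, -0.25 and 0.00 for its other probe sets.

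**Figure D2:**
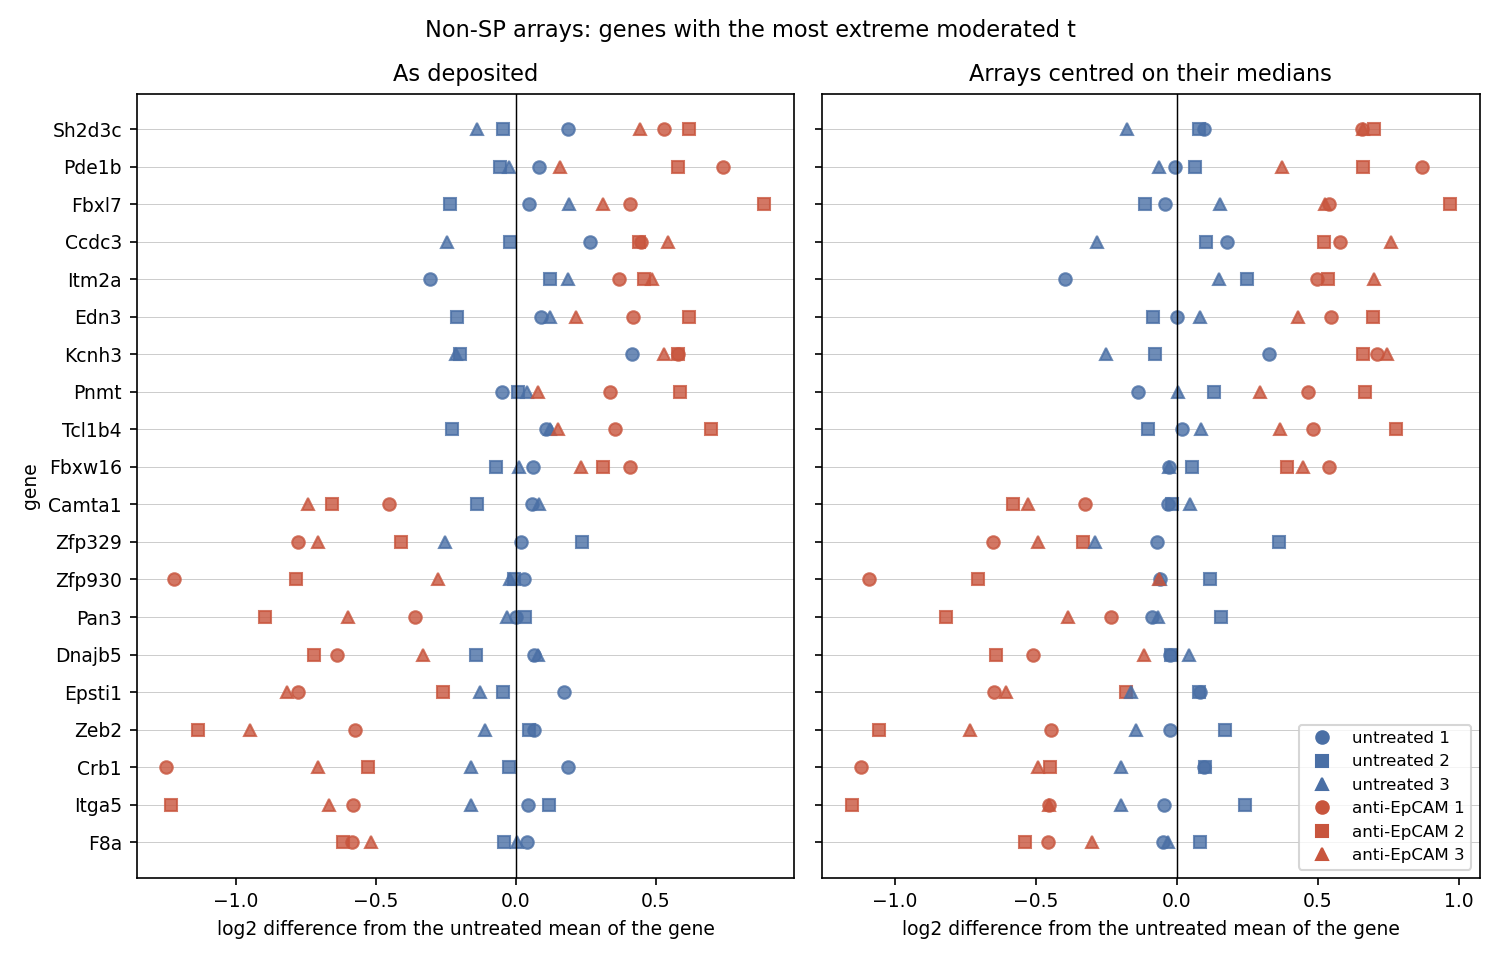
Each point is 1 non-SP array of the 10 highest and 10 lowest genes by moderated t, as its log2 difference from the untreated mean of the gene, as deposited (left) and with centred arrays (right). The arrays of the groups do not overlap because the genes were chosen for that, and the mean differences as deposited run from -0.89 for Zeb2 to 0.56 for Kcnh3.

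Notch is a contact signal in which Delta and Jagged ligands on 1 cell activate receptors on the next, gamma-secretase frees the receptor's inner part, and RBPJ carries it to target genes. Fringe enzymes add sugars to the receptors and set which ligands activate them. The ligand gene Dll4 and the Fringe gene Lfng, both already known from earlier results of these data, were the list members with the lowest p. Their RefSeq promoter windows are the 250 bases before the annotated start on the forward strand of GRCm38.p6. The windows are printed because the probe sets that stand for these genes had differences of opposite sign and RBPJ is the factor of this pathway. A second probe set of each gene did not differ in sign, at -0.15 for Dll4 and -0.11 for Lfng. Capitals mark the RBPJ core TGGGAA on either strand. The windows are chr2:119325534-119325783 for Dll4 and chr5:140607091-140607340 for Lfng.
Dll4: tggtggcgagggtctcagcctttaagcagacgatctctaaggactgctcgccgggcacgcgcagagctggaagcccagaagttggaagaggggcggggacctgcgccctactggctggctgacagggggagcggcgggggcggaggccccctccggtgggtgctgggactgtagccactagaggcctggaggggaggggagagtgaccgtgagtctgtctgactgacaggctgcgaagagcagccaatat
Lfng: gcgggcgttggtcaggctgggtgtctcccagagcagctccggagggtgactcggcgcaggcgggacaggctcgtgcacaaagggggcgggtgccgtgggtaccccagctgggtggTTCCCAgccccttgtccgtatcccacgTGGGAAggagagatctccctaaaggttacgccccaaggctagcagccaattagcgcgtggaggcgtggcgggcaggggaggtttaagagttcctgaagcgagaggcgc
The Lfng window holds 2 cores, 108 and 135 bases before the start, and 1 E-box CACGTG that overlaps the core at 108 by its last letters. The Dll4 window holds 0 of these letters, and neither window holds CTTTGA, the core bound by TCF and LEF factors. Over 32851 promoter windows of the same length, 21.6% held TGGGAA, 13.8% CTTTGA and 6.02% CACGTG, counted on both strands. The windows had GC contents of 65.6% for Dll4 and 66.0% for Lfng. A match is a description of letters, and no binding was measured. Whether these letters relate to the differences was not tested.

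Dll4 stood at 5.21, 4.93 and 4.88 in the untreated arrays and 5.38, 6.10 and 5.87 in the treated arrays. All treated arrays lay above all untreated ones, with replicate 2 the highest. The difference was 0.78 ± 0.21 (SE), 1.72-fold, with an unadjusted p of 0.00283 and a limma adjusted p of 0.988, and it was 0.62 without anti-EpCAM replicate 2. A second Dll4 probe set with a mean of 5.30 differed by -0.15. Lfng stood at 5.61, 5.26 and 5.35 in the untreated arrays and 4.96, 4.67 and 4.79 in the treated arrays, with all treated arrays below. Its difference was -0.60 ± 0.17 (SE), -0.46 centred and -0.53 without that replicate, and a second probe set with a mean of 4.73 differed by -0.11. Both genes lay below the array medians in most arrays.

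The rest of the pathway lay close to the bulk of genes. Of 24 measured Notch genes, 15 lay higher and 9 lower than the median over all genes, with a list median of -0.02 and 0 past the threshold. The ligand genes Dll1, Jag1 and Jag2 differed by 0.01, -0.24 and 0.01, and the receptor genes Notch1, Notch2 and Notch3 by 0.13, -0.28 and -0.26. The target genes Hes1, Hey1, Heyl and Nrarp, which report receptor activity in many tissues, differed by -0.02, -0.20, -0.16 and 0.00, and Rbpj itself by 0.11. The other Fringe genes, Mfng and Rfng, differed by -0.15 and -0.10. Several of these small values moved without anti-EpCAM replicate 2, with Dll1 at 0.13, Jag1 at -0.03, Notch1 at 0.24, Rbpj at -0.09, Hes1 at 0.10, Hes5 at 0.06, Hey1 at -0.32, Heyl at -0.56 and Mfng at -0.25.

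**Figure D3:**
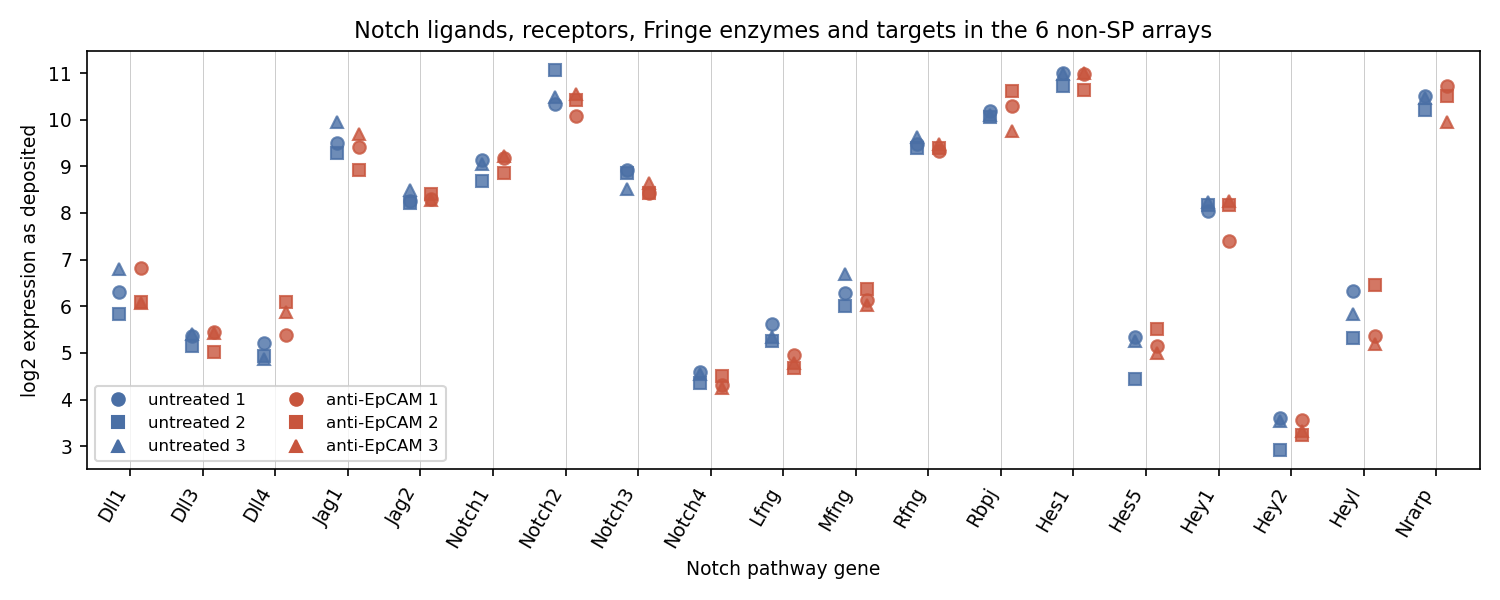
Log2 expression as deposited of Notch ligand, receptor, Fringe, Rbpj and target genes, with 1 point for each of the 6 non-SP arrays (blue untreated, red anti-EpCAM, marker shape by replicate). The treated points of Dll4 lie above and those of Lfng below their untreated points, while most other genes overlap between the groups, and differences of the others run from -0.28 for Notch2 to 0.20 for Hes5.

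Genes of mesenchymal transition were read beside Zeb2. Of 20 such genes, 8 lay higher and 12 lower than the median over all genes, with a list median of -0.12. Treated arrays lay apart downward for 2 (Zeb2 and Snai2; 6.62% over all genes) and, centred, for Zeb2 only among these genes (1.22%). Zeb1, the paralogue of Zeb2, differed by 0.00, Snai1 by -0.12 and Twist1 by -0.35, while the intermediate filament gene Vim and the matrix gene Fn1 differed by -0.07 and -0.04. Twist1 was at -0.08 without anti-EpCAM replicate 2. Tgfbi, the gene of a matrix protein induced by TGF-beta, stood at 9.05, 9.77 and 8.89 in the untreated arrays and 7.86, 8.18 and 9.23 in the treated arrays. The groups overlapped, and the difference was -0.81 ± 0.37 (SE), with -0.59, -0.43 and -0.62 for its other probe sets. Tcf4, which encodes an E-protein partner of such factors, stood at 8.41, 8.34 and 7.77 in the untreated arrays and 7.32, 6.31 and 8.63 in the treated arrays. Its lowest treated array was replicate 2, and the difference of -0.75 was -0.20 without it and -0.03 when also centred. The other Tcf4 probe sets differed by -0.38, -0.04, -0.71, -0.34 and -0.48.

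Among adhesion genes Itga5 was the member apart, in a list whose share of such genes lay near that of all genes. Of 18 integrin and laminin genes, 13 lay below the all-gene median, the list's own was -0.14, and 1 gene, Itga5, had treated arrays apart downward, as did 6.62% of all genes. Its partner chain gene Itgb1 differed by -0.05, and Itgav and Itga6 by -0.08 and -0.16. The junction and keratin genes had a median of -0.06 over 20 genes, with Cdh1 at -0.20, Krt8 at -0.07, Krt18 at -0.08, Tjp1 at -0.20 and Dsp, the gene of desmoplakin, at -0.43. The claudin gene Cldn4 stood at 5.82, 5.58 and 5.63 in the untreated arrays and 4.76, 5.90 and 5.23 in the treated arrays, where replicate 2 lay above the untreated ones and the other treated arrays below. Its difference was -0.38 and -0.68 without that replicate. Alveolar type II genes had a median of -0.14 over 17 genes. Sftpc, which encodes surfactant protein C, stood at 6.09, 5.66 and 5.80 in the untreated arrays and 4.98, 5.36 and 5.75 in the treated arrays, overlapping between groups, with a difference of -0.49 ± 0.28 (SE). A second Sftpc probe set, with a mean of 4.21, differed by -0.12.

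Drug pumps empty the Hoechst dye from SP cells, and Abcg2 encodes a pump that gives many cell types this property. Abcg2 stood at 8.50, 8.53 and 8.58 in the untreated arrays and 8.05, 8.24 and 8.26 in the treated arrays. The treated arrays lay below the untreated ones as deposited and overlapped them when centred. The difference of -0.35 ± 0.16 (SE) had an unadjusted p of 0.0446 and a limma adjusted p of 0.988, and it was -0.21 centred. The multidrug transporter genes Abcb1a and Abcb1b stood lower on average too, at -0.59 and -0.44, with overlapping arrays, and without anti-EpCAM replicate 2 Abcb1b was at 0.06. Of 15 pump genes, 11 lay below the median of all genes, and 4 had treated arrays apart downward as deposited (Abcg2, Abca2, Abca3 and Abcb10) but 0 when centred, beside 6.62% and 1.22% of all genes. The list median was -0.19, -0.09 relative to all genes and -0.04 without replicate 2. Among stem and progenitor markers the median was -0.08 over 15 genes. Prom1 and Cd24a differed by -0.04 and -0.01, and Prom1 by -0.19 without that replicate. Ngfr, the low-affinity neurotrophin receptor gene, stood at 5.66, 6.45 and 6.26 in the untreated arrays and 5.52, 5.80 and 5.08 in the treated arrays, with a difference of -0.65, and its dim other probe sets differed by 0.22 and 0.12.

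The oncogene pathways of the line had 0 members with arrays apart as deposited, where 1.19% of all genes lay apart upward and 6.62% downward. When centred, Braf and Egr1 lay apart upward (6.21% over all genes). Of 19 genes of RAF and ERK output, 14 lay above the median of all genes, with a list median of -0.02. Relative to all genes it was 0.09, and 0.17 without anti-EpCAM replicate 2. The ERK phosphatase gene Dusp6 and the ETS genes Etv4 and Etv5, which follow ERK activity, differed by 0.09, 0.03 and -0.09, and Egr1 and Fos by 0.12 and 0.16. Etv5 was at 0.17 without that replicate. Spry4, a feedback inhibitor gene, stood at 7.64, 6.15 and 6.93 in the untreated arrays and 7.001, 5.36 and 6.58 in the treated arrays. Its difference of -0.59 was -0.12 without anti-EpCAM replicate 2, and other Spry4 probe sets differed by -0.11, -0.004 and -0.08. Without the same replicate the difference of Araf, a RAF kinase gene, went from -0.30 to 0.10. The 4 other Araf probe sets, over all arrays, differed by -0.23, -0.54, -0.79 and -1.02. In the Myc network of 11 genes the median was -0.17. Mycn stood at 7.41, 6.92 and 7.03 in the untreated arrays and 7.17, 8.12 and 7.39 in the treated arrays, a difference of 0.45 that was 0.17 without replicate 2, and its other probe sets differed by -0.41 and -0.08.

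Phagocytes carry the Fc receptors that bind antibodies, so their genes were read as a list. Their mean level ranged from 5.70 to 6.10 in untreated and from 5.52 to 6.02 in treated arrays. The list had a median of -0.09 over 26 genes, with 13 higher and 13 lower than the median over all genes. Ncf1, which encodes an organizer subunit of the phagocyte NADPH oxidase, stood at 5.10, 5.38 and 5.43 in the untreated arrays and 4.48, 4.72 and 4.53 in the treated arrays. The arrays did not overlap on either scale, and the difference was -0.73 ± 0.18 (SE) with an unadjusted p of 0.00126. Its other probe sets, with means of 4.81 and 4.13, differed by 0.25 and -0.05. The integrin genes Itgal and Itgb2, which form a leukocyte adhesion receptor, differed by -0.42 and -0.46, the macrophage receptor gene Csf1r by -0.17 and the oxidase gene Cybb by 0.06. A second Itgal probe set, with a mean of 4.18, differed by 0.06. Csf1r was at -0.43 and Cybb at 0.18 without anti-EpCAM replicate 2. The 16 Fc receptor and complement genes had a median of -0.10, and Fcer1g, the shared Fc receptor chain gene, differed by -0.29. Interferon genes had a median of -0.09 over 21. Stat2, a subunit of the interferon-activated complex, stood at 6.42, 6.42 and 5.85 in the untreated arrays and 5.65, 5.77 and 5.82 in the treated arrays, a difference of -0.48 that its second probe set gave as -0.62, while Irf9 of the same complex differed by -0.27 and Mx1, an antiviral target, by 0.44. Mx1 was highest in anti-EpCAM replicate 2 and at 0.18 without it.

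Several genes with low unadjusted p had levels in the lower part of the array. Nnat, the imprinted gene of neuronatin, stood at 3.51, 3.46 and 3.83 in the untreated arrays and 4.26, 4.20 and 4.40 in the treated arrays, with a difference of 0.69 ± 0.17 (SE). Ina, the gene of the neuronal filament alpha-internexin, stood at 4.004, 3.92 and 3.90 in the untreated arrays and 4.55, 4.64 and 4.74 in the treated arrays and differed by 0.70. Emcn, the gene of the endothelial sialomucin endomucin, stood at 3.79, 3.64 and 3.95 in the untreated arrays and 4.27, 4.86 and 4.53 in the treated arrays and differed by 0.76. Their treated arrays lay above their untreated ones on both scales, at levels under the array medians. Sugct, a mitochondrial CoA-transferase gene, stood at 5.38, 4.85 and 5.30 in the untreated arrays and 4.21, 4.51 and 4.30 in the treated arrays and Ankrd29 at 4.67, 4.05 and 4.10 in the untreated arrays and 3.37, 3.51 and 3.29 in the treated arrays, with differences of -0.84 and -0.88. The dim other probe sets of Ina differed by -0.03 and 0.05, that of Sugct by 0.15 and that of Ankrd29 by 0.04. Of the 15 neuronal genes, 1 reached a mean level of 6, and the list median relative to all genes was 0.26. Without anti-EpCAM replicate 2, in which low-level genes were high, it was 0.01. For 21 imprinted genes the same values were 0.12 and 0.05.

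Stress and metabolism lists differed in how far they lay from the bulk. Heat shock genes had a median of -0.12 over 12. Hspa1a, an inducible chaperone gene, stood at 7.78, 8.53 and 8.35 in the untreated arrays and 8.29, 7.17 and 7.13 in the treated arrays, a difference of -0.69, with overlapping arrays. Stress genes that answer unfolded proteins or missing amino acids lay above the median of all genes for 16 of 19. Their median relative to all genes was 0.14, and 0.07 without anti-EpCAM replicate 2. The chaperone gene Hspa5 differed by 0.11, and Ddit3, Trib3 and Chac1, which follow ATF4, by 0.07, 0.28 and 0.30. Ddit3 was at 0.23 and Trib3 at 0.11 without that replicate. In glycolysis and hypoxia genes the median was -0.12 over 17. Pdk1 is the gene of a kinase that inhibits pyruvate dehydrogenase. It stood at 10.65, 10.82 and 10.58 in the untreated arrays and 10.02, 9.93 and 10.34 in the treated arrays. Its treated arrays lay apart downward as deposited and overlapped the untreated ones when centred. Its difference was -0.59, with -0.18, -0.45 and -0.58 for other probe sets. In cholesterol and fatty acid synthesis, 5 of 17 genes had treated arrays apart downward as deposited (Fdft1, Insig1, Srebf2, Scd1 and Scd2) and 0 when centred, beside 6.62% and 1.22% of all genes. Mitosis genes had a median of -0.16 and replication genes of -0.12, and without anti-EpCAM replicate 2 of -0.05 and -0.02. The medians of ribosome biogenesis relative to all genes were 0.04 and, without anti-EpCAM replicate 2, 0.18.

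The remaining lists are given by their medians, beside -0.10 for all genes. The median was -0.04 over 14 genes of the EGF receptor family and its ligands, -0.08 over 20 genes of NF-kB and inflammation and -0.10 over 21 targets of p53 and apoptosis genes. It was -0.01 over 18 genes of xenobiotic and oxidative stress, -0.12 over 20 of oxidative phosphorylation and -0.11 over 18 of the proteasome. Cytosolic ribosomal protein genes gave -0.07 over 12, and collagen and matrix protease genes -0.12 over 21. Relative to all genes and without anti-EpCAM replicate 2, these medians were -0.03 for the EGF receptor family, 0.00 for NF-kB, 0.08 for p53 and 0.13 for xenobiotic and oxidative stress. They were 0.07 for oxidative phosphorylation, 0.08 for the proteasome, 0.14 for ribosomal proteins and -0.04 for collagens and proteases. With all arrays the ribosomal protein median relative to all genes was 0.03.

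Over all 38 lists, 599 distinct genes were measured and 0 passed the threshold. At an unadjusted p under 0.05, 4 were higher and 12 lower, beside 0.517% and 2.7% of all genes. Of the 33 lists with at least 10 measured genes, 28 had a median within 0.1 log2 units of that of all genes. The sign of the median relative to all genes differed without anti-EpCAM replicate 2 for 14 of the 33.

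**Figure D4:**
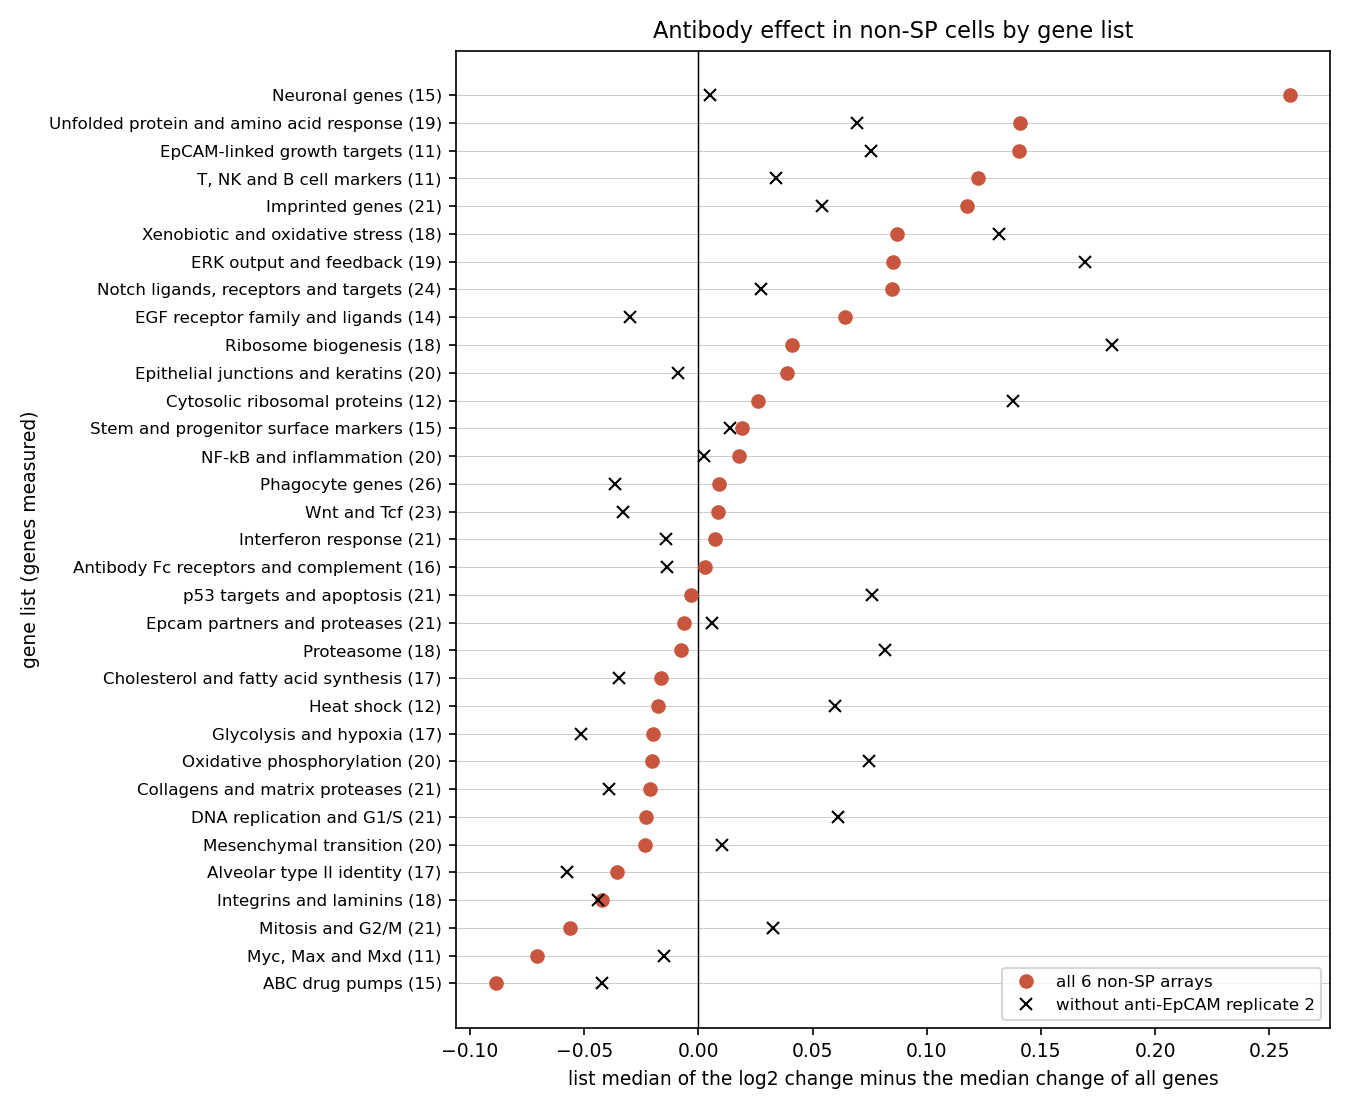
Median difference of each list with at least 10 measured genes minus the median of all genes (log2 units), with crosses for the same without anti-EpCAM replicate 2. Neuronal genes move from 0.26 to 0.01 and ribosome biogenesis from 0.04 to 0.18.

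Whether the antibody acted differently on non-SP and SP cells was read from the interaction, the SP difference minus the non-SP difference. With limma, 0 of 18194 genes passed the threshold, the lowest adjusted p was 1.00, and 43 (0.236%) had an unadjusted p under 0.05. The named genes with such a p were Dnajb5, Fbxw16 and Pan3. Pan3 differed by -0.62 in non-SP and by -0.01 in SP cells, and its SP arrays stood at 8.27, 8.46 and 8.28 untreated and 8.52, 8.55 and 7.93 treated. The interaction of Pan3 was 0.61 ± 0.27 (SE) with an unadjusted p of 0.0427. In non-SP arrays Dnajb5 stood at 6.75, 6.54 and 6.77 in the untreated arrays and 6.05, 5.97 and 6.36 in the treated arrays, and in SP arrays at 6.22, 6.14 and 6.60 untreated and 6.48, 6.25 and 6.38 treated. Its differences were -0.56 and 0.05, with an unadjusted p of 0.0255, and those of Fbxw16 0.32 and -0.27, with an interaction p of 0.0305. None of these 3 passed the adjustment over all genes. For Zeb2 the differences were -0.89 in non-SP and -0.47 in SP cells, for Itga5 -0.83 and -0.35, for Dll4 0.78 and 0.59, for Lfng -0.60 and -0.29 and for Abcg2 -0.35 and -0.33. The interaction of Zeb2 was 0.41 ± 0.37 (SE), that of Itga5 0.47 ± 0.31 (SE) and that of Abcg2 0.02 ± 0.22 (SE), with unadjusted p of 0.287, 0.156 and 0.918. The median difference of all genes was -0.12 in SP cells, beside -0.10 in non-SP cells. The labels do not say whether SP and non-SP cells of 1 number came from 1 culture. Their deviations from the group means correlated across genes at 0.55 to 0.84, so the SP values are no separate support for the non-SP values. The interaction SEs and p-values above are from the fit without a block for culture. They can be too large where such arrays share a culture. With culture as a random block, the consensus correlation within a culture was 0.68 and 0 interactions passed the threshold.

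**Figure D5:**
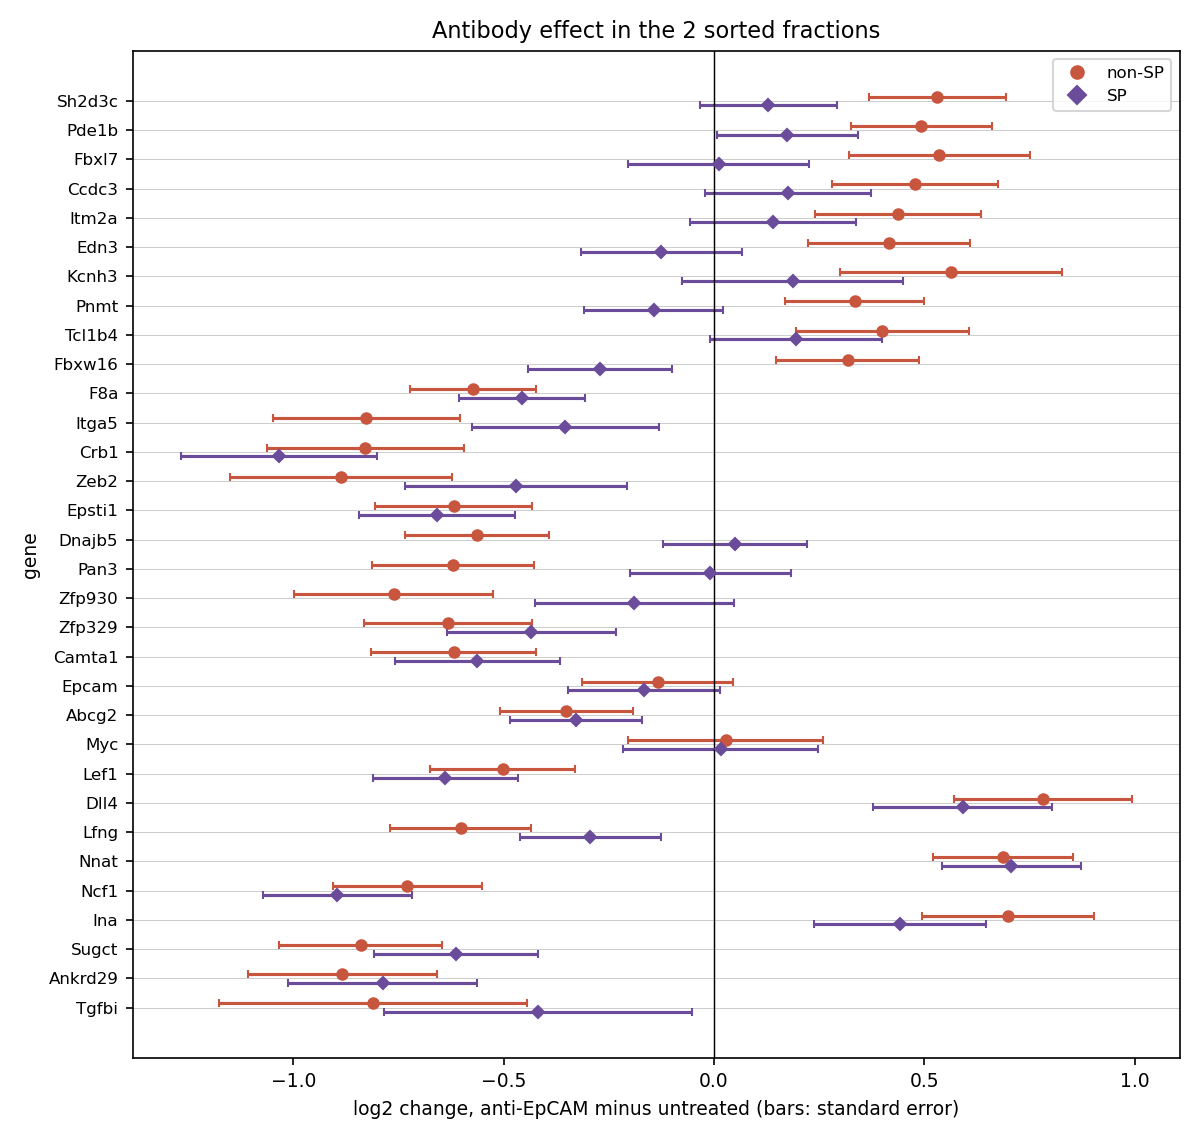
Treated minus untreated difference ± SE (log2 units) in non-SP and in SP cells for the 20 genes ranked by moderated t and the further genes named for the antibody, pumps and earlier results. Pan3 and Dnajb5 differ most visibly between the fractions, at -0.62 and -0.56 against -0.01 and 0.05, and no interaction passed the threshold.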

How the data were processed

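The authors deposited log2 values of 12 arrays with 45101 probe sets, and per the submitters' processing notes they were summarised by RMA. Which software and version they used, and any later scaling, is not given in the sources used here. Probe sets with 1 symbol in the platform annotation numbered 34958, and the one with the highest mean over the 12 arrays stood for its gene (18194 genes). No filter on level was applied. Other probe sets of a gene are given for some of the named genes only. Group means over 12 arrays were fitted with limma 3.58.1 in R 4.3.3 without a block or trend, which left 8 residual degrees of freedom. These count SP and non-SP arrays as independent, which the labels do not settle. That limit also holds for the p-values and intervals of the non-SP comparison. Tests were two-sided, and the threshold was 0.05 after Benjamini-Hochberg adjustment. The number of arrays limits the precision. The fit was run on simulated data with independent arrays, no shifts of whole arrays and no shared cultures. That simulation does not bear on how those features affect the results. Gene lists, named genes and this comparison were chosen with earlier results of these data known. Named genes are the 10 highest and 10 lowest by moderated t among genes with a mean of at least 6, arrays apart both as deposited and centred and no clone-like name, the 3 lowest p of each described list, and 14 genes fixed for the antibody, transgenes and earlier results, of which 1 was not analysed here. The text does not give every gene with 1 of the 3 lowest p of a list, and it adds list members for their roles. Array replicate numbers were not used to pair treated with untreated arrays, since the labels name no pairing. Promoter windows are from RefSeq. Alternatives were other scalings, filters, fits, probe sets and leaving out each array. Figures used Python 3.11.15 and matplotlib 3.10.9.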

Additional observations from a re-analysis of the deposited data

How the results depend on the processing

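No gene passed the threshold under any setting run, and no interaction under centring, culture as a random block or the replicate block. The lowest adjusted p by limma lay between 0.40 (every probe set) and 1.00. Counts at an unadjusted p under 0.05, 94 higher and 491 lower as reported, depended on scale: 560 and 88 with centred arrays, 416 and 169 after quantile normalisation, 437 and 100 in the centred fit over the 6 non-SP arrays. Restricting to genes with a mean of at least 6 gave 9 and 300, and every probe set 179 and 1307. Culture as a random block gave 83 and 358, and the fit over the 6 non-SP arrays as deposited 79 and 408. The deviations of same-numbered untreated and treated arrays from their group means correlated at -0.0054, -0.14 and -0.379. The labels name no pairing between them, and whether they were handled together is not known. With the replicate block 794 genes were lower, 136 higher and 0 past the threshold. Leaving out 1 array gave 48 to 274 higher and 257 to 929 lower genes, the lowest without anti-EpCAM replicate 2 (higher) and untreated replicate 1 (lower), the highest without anti-EpCAM replicate 3, and 53 higher without untreated replicate 2. With centred arrays, chosen after seeing the data, these counts were 319 to 836 and 61 to 390, the highest again without anti-EpCAM replicate 3. Genes whose arrays did not overlap numbered 216 higher and 1204 lower, and 1130 and 222 centred. Among named genes, Epcam became 0.0074 centred, also in the fit over the 6 non-SP arrays, and 0.054 after quantile normalisation, and Mycl 0.030 after the latter. Leaving out 1 array turned Myc, which ranged from -0.12 without untreated replicate 2 to 0.26, and was also negative without anti-EpCAM replicate 1 and without replicate 2. Without anti-EpCAM replicate 2, Fabp5 became 0.035 and Araf 0.10, against lows of -0.60 and -0.51 without other treated arrays. The cause of these shifts was not tested.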

Other observations

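Some probe sets that do not stand for their gene had lower p-values than any gene in the report. When every probe set was tested on its own with limma, the lowest adjusted p was 0.40, for a probe set of Abce1, the gene of a ribosome recycling factor. It stood at 5.82, 5.56 and 5.47 in the untreated and 4.44, 4.23 and 4.55 in the treated arrays, a difference of -1.20. A probe set of Ifnar1, the interferon alpha receptor gene, stood at 5.41, 5.95 and 5.54 against 4.38, 4.48 and 4.91. A probe set of Fuca1, the gene of a lysosomal fucosidase, stood at 4.95, 4.92 and 5.11 against 6.04, 6.04 and 5.50. None passed the threshold, and they were named after their values were seen.

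Each treated array had a higher mean correlation with the other arrays than with its own group. For anti-EpCAM replicate 3 the correlation over all genes, with 1 probe set for each, was 0.992 with untreated replicates 1 and 2. It was 0.987 with untreated replicate 3, and 0.985 and 0.979 with anti-EpCAM replicates 1 and 2. Without it the lowest adjusted p by limma was 0.669, shared by several genes, among them Pi15. Pi15, the gene of a secreted peptidase inhibitor, stood at 6.28, 6.50 and 6.08 in the untreated arrays and 4.90, 5.06 and 5.87 in the treated arrays. Its difference was -1.01 over all arrays and -1.31 without replicate 3.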
